A study of Drosophila melanogaster with 102 samples.

Results

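The direct response of adult females to a high sugar diet was examined in the mothers of the series, the generation that ate the diet. Whole flies fed a high sugar diet (HSD) for 7 days (5 libraries, s11 to s15) were compared with flies fed a control diet (CD) for 7 days (5 libraries, s1 to s5), 10 of the 102 libraries of the series, chosen by the diet and generation in the labels. All were Drosophila melanogaster of strain W1118, labelled as white mutants, and females of each group were mated with males fed CD. A further group of 5 mothers on a high fat diet (HFD) for 7 days shared the fit, and its values are given beside those of HSD only where they help to read them. Neither the sugar content of the diets nor the number of flies per library is given in the sources used here.

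In flies, dietary sugar is digested and absorbed in the midgut, circulates as glucose and trehalose, and is stored as glycogen and fat in the fat body. The paired factors Mondo and Mlx sense intracellular sugar and switch on genes for sugar use and lipid synthesis, while insulin-like peptides from the brain and adipokinetic hormone from the corpora cardiaca balance storage and release. Long exposure to high sugar is a widely used fly model of obesity and insulin resistance. Several midgut digestive enzymes are known to be repressed by dietary sugar in flies.

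The 5 HSD libraries held 10247670 to 11893261 counts and the 5 CD libraries 11929285 to 16483681, so the groups did not overlap in depth, and refitting after thinning every library to the smallest one left the counts of genes below within 1.5 times. Marker genes matched the female label in all mothers: the germline gene osk stood at 1076 to 1399 CPM (counts scaled to a common library size), whereas the sperm gene Mst87F stayed at or under 0.302 CPM and the seminal fluid gene Acp36DE at or under 0.292 CPM. Libraries s1 (CD), s13 (HSD) and, less far, s12 (HSD) stood apart on the first principal component, which held 23.1% of the variance, and they carried more transcripts of inducible immune peptides, amylases and fat body genes than the other libraries of their groups. The mean log2 CPM of 18 fat body genes was 7.65 in s12 and 7.95 in s13, against 6.59 to 6.76 in the other HSD libraries, and 7.63 in s1, against 6.16 to 6.70 in the other CD libraries. CD library s3 differed in w, the gene mutated in this strain, with 13.3 CPM against 0.467 to 1.52 CPM in the other 14 mothers, and whether it holds flies of the labelled genotype was not tested. Without s3, 425 genes were higher and 280 lower at an unadjusted p under 0.05 and edgeR called 0, and of the genes named here w alone changed sign. All values below are CPM scaled by TMM, fold changes are log2(HSD/CD) ± SE, and edgeR stands for its quasi-likelihood test with Benjamini-Hochberg adjustment. Whether replicate libraries derive from different vials of flies is not labelled, and the p-values therefore reflect library-to-library spread that could be technical.

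The transcriptome of HSD mothers differed from that of CD mothers by small amounts. No gene passed edgeR's adjusted p of 0.05 among 10243 tested (0% called), and the smallest adjusted p was 0.213. At an unadjusted p under 0.05 there were 949 genes (9.26%), 574 of them higher in HSD mothers (5.6%) and 375 lower (3.66%). All 5 HSD libraries lay above all 5 CD libraries for 49 genes (0.478%) and below them for 78 genes (0.761%). DESeq2, run on the same counts, called 38 of 10025 genes (0.379%), 19 higher and 19 lower (0.19% each). In 29 of those 38 genes the HSD and CD libraries did not overlap, as in 127 of the 10243 genes (1.24%). DESeq2 picked the 38 for a difference between these same libraries, so the lack of overlap is no separate support for its calls. The words rose and fell are therefore not used for single genes below, and a gene is said to be called by DESeq2 where that tool alone passed it.

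The gene with the smallest p encodes the GABA transaminase Gabat, the enzyme that breaks down the inhibitory transmitter GABA. Gabat (3L:19997714-20000686, minus strand, BDGP6.54) stood at 149.9, 121, 132, 135 and 124 CPM in HSD mothers, against 153, 202, 173, 202 and 168 CPM in CD mothers. Every HSD library lay below every CD library, and the highest HSD library was close to the lowest CD library. The difference was -0.44 ± 0.08 (edgeR adjusted p = 0.213, DESeq2 adjusted p = 0.000719). HFD mothers averaged 166 CPM, and HSD mothers were also lower than these, by -0.33 ± 0.08 (edgeR adjusted p = 0.609).

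The largest difference among genes with a mean of 1 CPM or more whose groups did not overlap was in CG13947, a short gene at 2L:779173-779655 (plus strand). It stood at 4.45, 4.29, 5.83, 3.30 and 2.63 CPM in HSD mothers, against 9.97, 81.3, 19.6, 42.4 and 9.97 CPM in CD mothers. HSD libraries were uniformly low, whereas CD libraries spread widely. The log2 fold change was -2.98 ± 0.54, and the gene had the smallest DESeq2 adjusted p of the comparison, 5.24e-06 (edgeR adjusted p = 0.213). CG14963 behaved alike in direction, with 6.37 to 9.48 CPM in HSD mothers and 10.6 to 18.9 CPM in CD mothers (-0.91 ± 0.18, DESeq2 adjusted p = 0.00284).

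On the higher side, the genes with the smallest p were ringer, InR, puc, NK7.1 and Fad2. The gene ringer (3L:16354746-16359428), which encodes a microtubule-associated protein of the TPPP family, stood at 30.8, 28.5, 32, 29.2 and 25.6 CPM in HSD mothers, against 23, 20.4, 19.9, 21.5 and 20.7 CPM in CD mothers (0.47 ± 0.08, DESeq2 adjusted p = 0.000728). The groups were separated, with a narrow spread in both. The gene puc, which encodes a phosphatase that is both a target and a brake of JNK signalling, stood at 60.7 to 78.0 CPM in HSD mothers and 54.4 to 57.9 CPM in CD mothers (0.33 ± 0.07, DESeq2 adjusted p = 0.00606). The homeobox gene NK7.1 was at 22.4 to 27.6 CPM in HSD mothers and 16.2 to 20.9 CPM in CD mothers (0.44 ± 0.10, DESeq2 adjusted p = 0.00991).

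**Figure D1:**
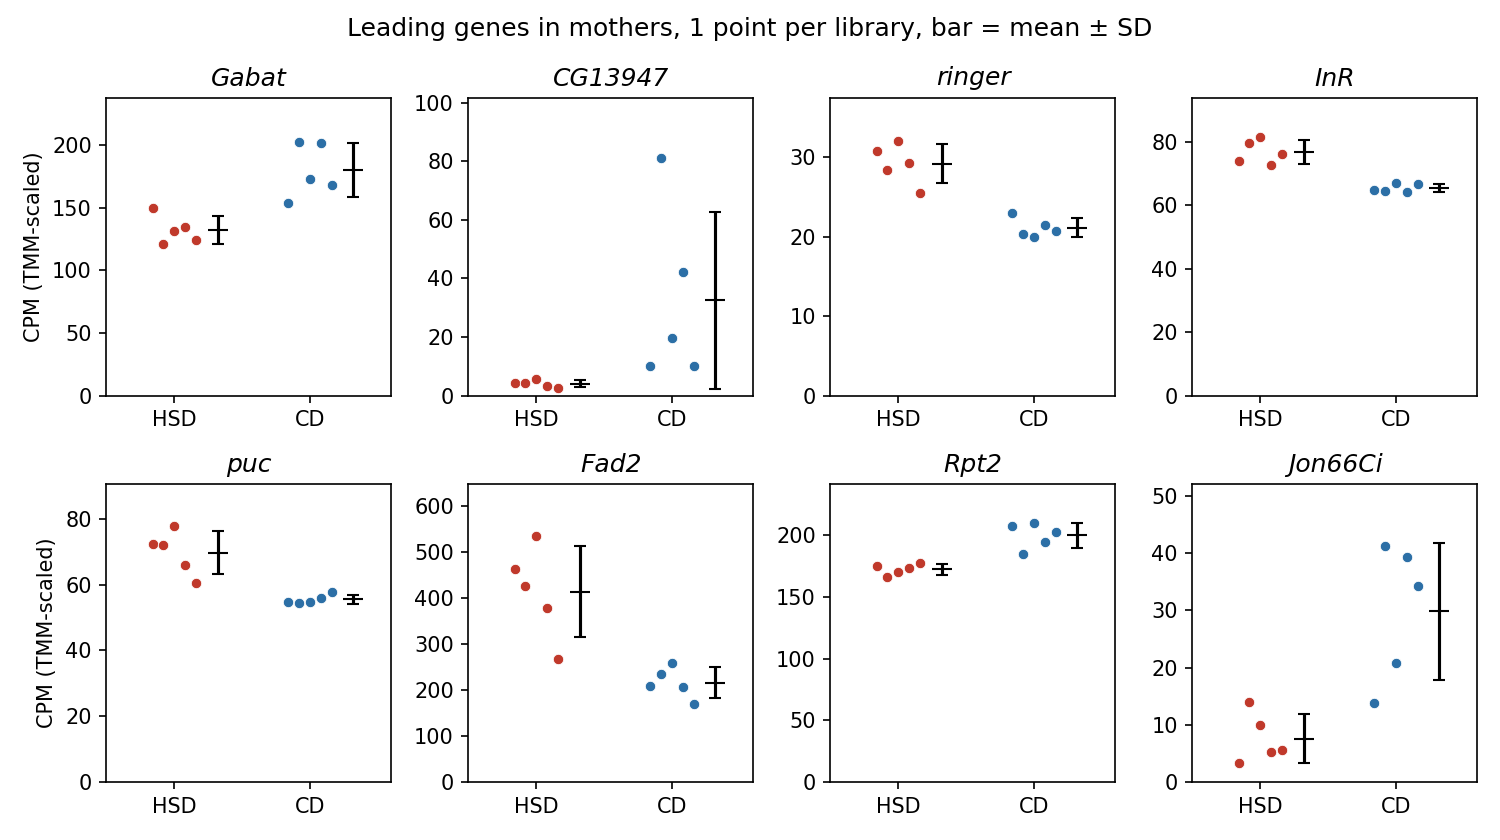
CPM of 8 genes with a small p in each of the 5 HSD libraries (red, left) and 5 CD libraries (blue, right), with the mean ± SD beside each group. HSD and CD points are separated for Gabat, CG13947, ringer, InR, puc, Fad2 and Rpt2, and touch for Jon66Ci, where the highest HSD library and the lowest CD library were both at 13.9 CPM.

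The insulin receptor and some further insulin pathway genes had higher levels in HSD mothers. InR, the insulin receptor (3R:21570248-21619321), stood at 74.1, 79.5, 81.7, 72.8 and 76.2 CPM in HSD mothers, against 65.0, 64.5, 67.0, 64.3 and 66.6 CPM in CD mothers. The groups were separated and both were tight, so that a difference of only 0.23 ± 0.05 had an unadjusted p of 0.000229 (edgeR adjusted p = 0.346, DESeq2 adjusted p = 0.00599). HFD mothers were at 70.5 to 77.3 CPM, close to HSD mothers. Of 27 insulin and adipokinetic hormone genes tested, 6 were higher at an unadjusted p under 0.05 and 0 lower (all genes, 5.6% and 3.66%), 18 had a positive log2 fold change (all genes, 53.2%), and the median was 0.09, against 0.01 over all genes. Without libraries s1, s12 and s13 the number higher at an unadjusted p under 0.05 was 2.

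Beside InR, these 6 included chico, the insulin receptor substrate (0.17 ± 0.06, edgeR adjusted p = 0.521), and 4 targets or brakes of insulin and TOR signalling. Thor, the translational repressor 4E-BP that FOXO switches on, stood at 291, 227, 225, 240 and 189 CPM in HSD mothers, against 112, 214, 196, 157 and 176 CPM in CD mothers (0.45 ± 0.14, edgeR adjusted p = 0.489). The groups overlapped, with CD library s1 lowest of all. REPTOR-BP, a partner of a transcription factor held back by TOR, was at 0.35 ± 0.12 (edgeR adjusted p = 0.489), NLaz, a lipocalin that dampens insulin signalling, at 0.36 ± 0.13 (edgeR adjusted p = 0.514), and Lst, the hormone limostatin that limits insulin release, at 0.62 ± 0.27 (edgeR adjusted p = 0.528). The insulin-like peptides were not among them: Ilp2 stood at 7.73 to 10.4 CPM in HSD mothers and 5.32 to 13.2 CPM in CD mothers, and Ilp3 at 0.653 to 1.83 CPM and 0.362 to 1.23 CPM.

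Among 14 sugar-sensing genes tested, 2 were higher at an unadjusted p under 0.05 and 0 lower (all genes, 5.6% and 3.66%). The number higher was 4 without HSD library s15 and 1 without any single one of CD libraries s3 and s5 and HSD libraries s11, s12 and s13. Mondo, the sugar-sensing factor, stood at 226, 219, 212, 197 and 199 CPM in HSD mothers, against 204, 192, 189, 194 and 199 CPM in CD mothers (0.10 ± 0.05, edgeR adjusted p = 0.528). Its groups overlapped at their edges. The transporter gene salt, which is induced through this route in larvae, averaged 79.7 ± 11.7 CPM in HSD mothers and 59.4 ± 16.1 CPM in CD mothers (SD, n = 5 each, 0.42 ± 0.16, edgeR adjusted p = 0.528), and HFD mothers averaged 82.1 CPM. The Mondo targets cbt (0.26 ± 0.12, edgeR adjusted p = 0.528) and sug (0.11 ± 0.22, edgeR adjusted p = 0.852) overlapped between groups.

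Sugar digestion genes were high in single libraries of both diets. Amy-p, an amylase that cuts starch, stood at 34.7, 221, 453, 28.8 and 28.4 CPM in HSD mothers, against 280.3, 56.7, 81.0, 42.7 and 43.4 CPM in CD mothers. Libraries s13 and s12 were high among HSD and s1 among CD, and the other 3 HSD libraries lay below all CD libraries. The log2 fold change of Amy-p was 0.60 ± 0.82 (edgeR adjusted p = 0.769), and without s1, s12 and s13 it was -0.88. At an unadjusted p under 0.05 there were 0 of the 13 genes of the list in either direction, and their median of 0.27 became -0.93, with 2 genes lower, without those 3 libraries. Against HFD mothers the same list had a median of 1.20, with 5 of 13 genes higher at an unadjusted p under 0.05 (all genes, 5.45%). Libraries s12 and s13 stood apart here too. The list's mean log2 CPM was 5.04 in s12 and 6.49 in s13, above the HFD range of 3.20 to 4.82. HSD libraries s11, s14 and s15 lay within that range.

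Of 14 glycolysis genes tested, 3 were lower and 1 higher at an unadjusted p under 0.05 (all genes, 3.66% and 5.6%), 9 had a negative log2 fold change, and the median was -0.11. Without CD library s2 there were 2 higher. Gapdh2, a glyceraldehyde-3-phosphate dehydrogenase, stood at 923, 1023, 919, 944 and 983 CPM in HSD mothers, against 1080.3, 1053, 1179, 1134 and 1173 CPM in CD mothers. All HSD libraries lay below all CD libraries, and the gene was called by DESeq2 (-0.23 ± 0.06, DESeq2 adjusted p = 0.0317, edgeR adjusted p = 0.389). Tpi, the triose phosphate isomerase one step upstream, was at 266 to 302 CPM in HSD mothers and 319 to 357 CPM in CD mothers (-0.29 ± 0.10, edgeR adjusted p = 0.512). Gapdh1 (-0.13 ± 0.08, edgeR adjusted p = 0.556) and the enolase Eno (-0.13 ± 0.08, edgeR adjusted p = 0.560) were also separated between the groups without reaching an unadjusted p of 0.05. In all, 4 of 14 glycolysis genes had every HSD library below every CD library (all genes, 0.761%) and 0 had every one above. The 1 gene higher at that p was Pfrx, the bifunctional enzyme that sets fructose 2,6-bisphosphate, at 136 to 194 CPM in HSD mothers and 122 to 161 CPM in CD mothers (0.34 ± 0.12, edgeR adjusted p = 0.493).

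Among 16 genes of trehalose, glycogen and polyol metabolism, 1 was higher and 1 lower at an unadjusted p under 0.05 (all genes, 5.6% and 3.66%). Of the 16, 9 had a positive and 7 a negative log2 fold change. Without CD library s1 there were 3 higher, without HSD library s14 there were 0, and without HSD library s13 there were 2 lower. Glyp, the glycogen phosphorylase that releases glucose from glycogen, stood at 520.3, 547, 533, 521 and 528 CPM in HSD mothers, against 606, 574, 572, 549 and 569.7 CPM in CD mothers (-0.12 ± 0.04, edgeR adjusted p = 0.528). The groups were separated by a small gap. Treh, the trehalase that splits the circulating sugar trehalose, averaged 265 ± 27.3 CPM in HSD mothers and 229 ± 16.7 CPM in CD mothers (SD, n = 5 each, 0.21 ± 0.08, edgeR adjusted p = 0.528). Nuclear genes of oxidative phosphorylation (52 tested, median 0.02) and of the citrate cycle (19 tested, median 0.01) had 0 members at an unadjusted p under 0.05 in either direction.

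In lipid metabolism the clearest difference was in Fad2, the female-specific desaturase of oenocytes that makes the diene hydrocarbons of the cuticle. Fad2 (3L:11023535-11024846) stood at 462, 426, 533, 378 and 268 CPM in HSD mothers, against 209, 235, 259, 206 and 169 CPM in CD mothers. All HSD libraries lay above all CD libraries (0.94 ± 0.21, DESeq2 adjusted p = 0.00599, edgeR adjusted p = 0.354). Cyp4g1, the oenocyte P450 that completes hydrocarbon synthesis, stood at 4185, 4012, 5806, 3775 and 2711 CPM in HSD mothers, against 3264, 2457, 2256, 2234 and 1697 CPM in CD mothers (0.78 ± 0.23, edgeR adjusted p = 0.489). HSD library s15 was the 1 library that lay within the CD range. HFD mothers, which share the fit, averaged 511 CPM of Fad2 and 4879 CPM of Cyp4g1, and the differences of HSD from HFD were -0.30 ± 0.21 and -0.25 ± 0.23 (edgeR adjusted p = 0.680 and adjusted p = 0.723).

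Of 23 lipogenesis genes, 3 were higher at an unadjusted p under 0.05 and 1 lower (all genes, 5.6% and 3.66%). The number higher was 8 without HSD library s15 and 5 without CD library s1. SCAP, which escorts the lipid regulator SREBP for activation, was at 105 to 137 CPM in HSD mothers and 90.3 to 104 CPM in CD mothers (0.30 ± 0.09, edgeR adjusted p = 0.489), with the groups separated. FASN3, a fatty acid synthase of oenocytes, was at 154 to 364 CPM in HSD mothers and 95.7 to 229 CPM in CD mothers (0.68 ± 0.28, edgeR adjusted p = 0.528). The main fatty acid synthase FASN1 stood at 1533, 1704, 1525, 1664 and 921 CPM in HSD mothers, against 1653, 1691, 1411, 1169 and 1439 CPM in CD mothers, a difference of -0.00 ± 0.17 (edgeR adjusted p = 0.996). Its 95% interval ran from -0.34 to 0.33, and SREBP (0.15 ± 0.08, edgeR adjusted p = 0.535) and the desaturase Desat1 (0.17 ± 0.12, edgeR adjusted p = 0.603) also overlapped between groups. A predicted acyl-CoA desaturase, CG9747, was lower: 19.7, 28.7, 24.4, 25.5 and 24.9 CPM in HSD mothers, against 37, 34.8, 55.1, 54.0 and 51.5 CPM in CD mothers (-0.91 ± 0.21, DESeq2 adjusted p = 0.0145), while HFD mothers averaged 45.3 CPM.

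Of 22 genes of lipolysis and fat storage, 3 were lower at an unadjusted p under 0.05 and 0 higher (all genes, 3.66% and 5.6%), with 11 positive and 11 negative log2 fold changes and a median of -0.01. The 3 lower ones act in mitochondrial fatty acid oxidation and are named for having passed that p. Mtpalpha and Mtpbeta encode the subunits of the mitochondrial trifunctional protein, which carries out the last steps of each oxidation round. Mtpalpha stood at 300.2, 311, 314, 317 and 299 CPM in HSD mothers, against 330.2, 339, 354, 345 and 344 CPM in CD mothers, with the groups separated (-0.15 ± 0.04, DESeq2 adjusted p = 0.00498, edgeR adjusted p = 0.389). Mtpbeta was at 156 to 169 CPM in HSD mothers and 172 to 197 CPM in CD mothers (-0.17 ± 0.06, edgeR adjusted p = 0.524), and the medium-chain dehydrogenase Mcad at 211 to 260 CPM and 237 to 296 CPM (-0.22 ± 0.08, edgeR adjusted p = 0.512). Without CD library s1, 4 genes of the list were lower and 3 higher. The triglyceride lipase bmm, which mobilises stored fat, was at 0.20 ± 0.09 (edgeR adjusted p = 0.528).

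**Figure D2:**
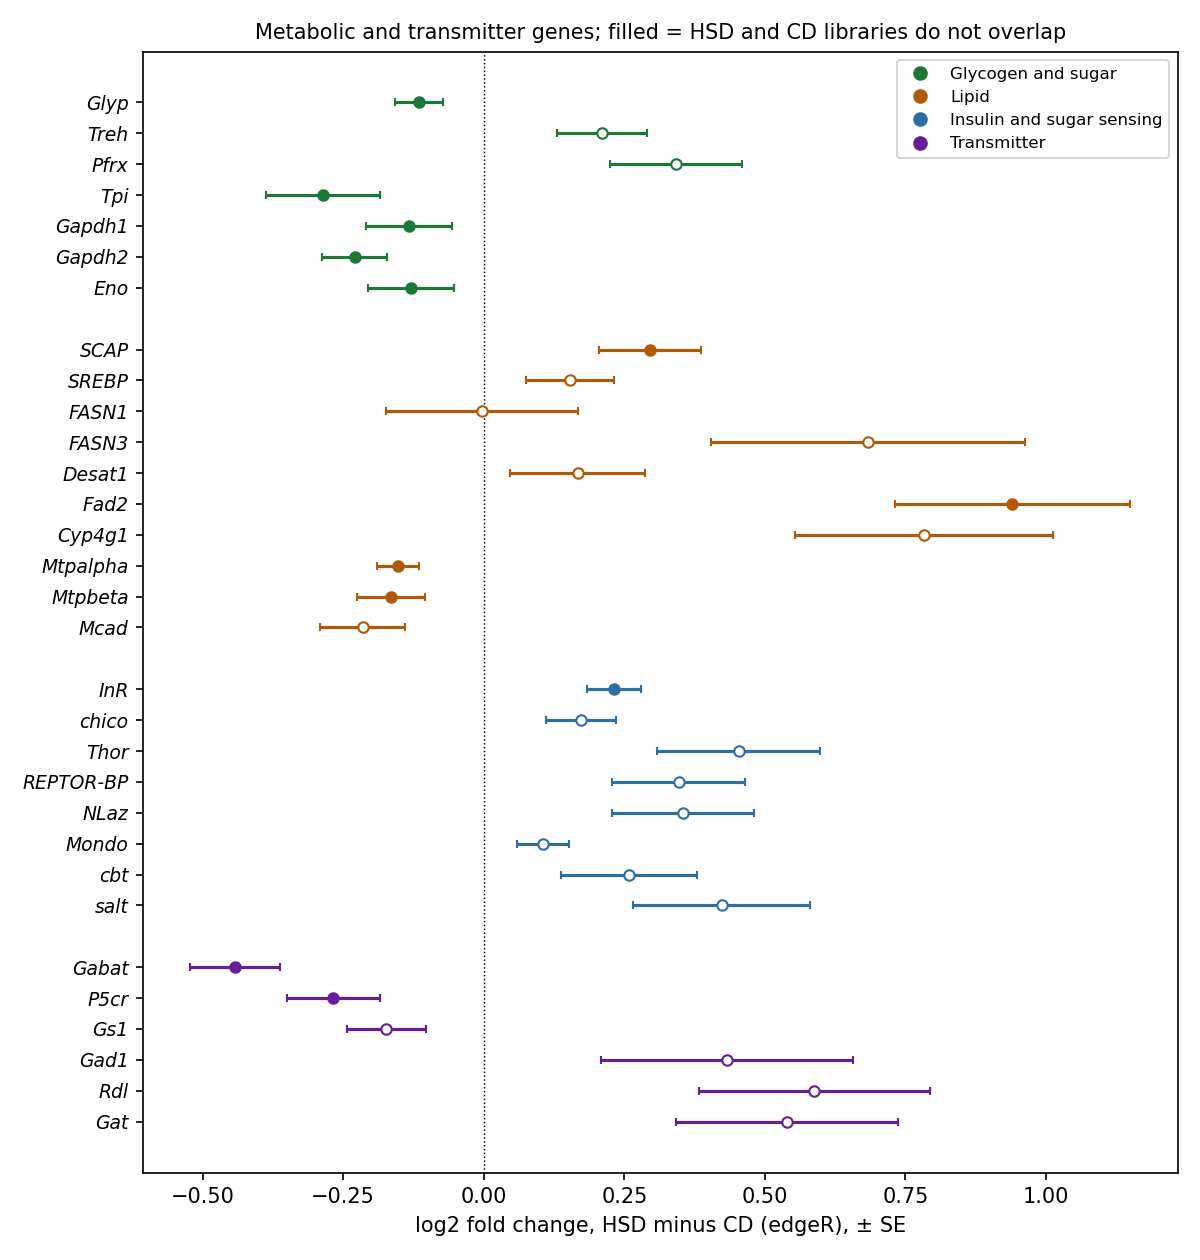
Log2 fold change of HSD over CD mothers ± SE (edgeR) for genes of sugar and glycogen use, lipid metabolism, insulin and sugar sensing, and transmitter handling. Filled points are genes whose HSD and CD libraries do not overlap: Gapdh2, Tpi, Gapdh1, Eno, Glyp, Mtpalpha, Mtpbeta, Gabat and P5cr lie left of 0, and InR, SCAP and Fad2 right of it.

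The lower level of Gabat was set beside the other genes of GABA and glutamate handling. Of 18 tested, 3 were lower and 2 higher at an unadjusted p under 0.05 (all genes, 3.66% and 5.6%). The number higher was 6 without CD library s2 and 4 without HSD library s12. P5cr, which makes proline from a glutamate-derived precursor, was at 23 to 28.3 CPM in HSD mothers and 29.2 to 35.2 CPM in CD mothers, with the groups separated (-0.27 ± 0.08, edgeR adjusted p = 0.489). Gs1, the mitochondrial glutamine synthetase, was at 186 to 229 CPM in HSD mothers and 194 to 258 CPM in CD mothers (-0.17 ± 0.07, edgeR adjusted p = 0.528). The GABA receptor Rdl (0.59 ± 0.20, edgeR adjusted p = 0.498) and the GABA transporter Gat (0.54 ± 0.20, edgeR adjusted p = 0.524) were higher, as was the GABA-synthesising enzyme Gad1 without reaching that p (0.43 ± 0.22, edgeR adjusted p = 0.539). Rdl and Gad1 belong to the neuronal list and Gat to the glial list described below, both of which had positive medians.

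Digestive serine proteases of the midgut had a lower mean level in each HSD library than in any CD library. These enzymes, the Jonah proteases and trypsins, cut dietary protein in the gut lumen. Of 33 tested, 29 had a negative log2 fold change (all genes, 46.8%), 10 were lower at an unadjusted p under 0.05 (all genes, 3.66%) and 0 higher, and the median was -0.46. Their mean log2 CPM was 4.80, 4.94, 4.97, 4.95 and 4.48 in HSD libraries, against 5.14, 5.42, 5.40, 5.90 and 5.17 in CD libraries, so the list mean of every HSD library lay below that of every CD library. Without s1, s12 and s13 the median was -0.56, with 12 genes lower and 1 higher. HFD mothers ranged from 4.72 to 5.53 and overlapped both groups.

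Jon66Ci stood at 3.24, 13.9, 10.0, 5.25 and 5.53 CPM in HSD mothers, against 13.9, 41.2, 20.8, 39.3 and 34.2 CPM in CD mothers (-1.97 ± 0.43, DESeq2 adjusted p = 0.00284, edgeR adjusted p = 0.346). It was also the 1 gene of 10224 that DESeq2 called between HSD and HFD mothers (0.00978%), with a log2 fold change of -1.95 and an adjusted p of 0.0203, while edgeR called 0 of 10243 in that comparison and had 831 at an unadjusted p under 0.05 (8.11%). Jon65Ai stood at 46.9, 56.1, 33.1, 62.4 and 37.9 CPM in HSD mothers, against 43.3, 130.5, 121, 149 and 95.6 CPM in CD mothers (-1.19 ± 0.31, DESeq2 adjusted p = 0.0289). Its groups overlapped through CD library s1. Jon25Bii (1.05 to 2.61 CPM in HSD mothers and 2.91 to 16.3 CPM in CD mothers, -2.02 ± 0.56) and Jon66Cii (0 to 2.61 CPM and 2.70 to 5.26 CPM, -1.96 ± 0.62) were separated at low levels. Counts of Jonah genes are uncertain, since reads of near-identical copies can be shared among them.

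Other genes among the lowest in HSD mothers include a further predicted serine protease and an antigen-5 family gene. CG11912, the protease, stood at 7.99, 6.63, 5.48, 10.0 and 4.83 CPM in HSD mothers, against 15.2, 19.2, 13.6, 18.6 and 13 CPM in CD mothers (-1.19 ± 0.29, DESeq2 adjusted p = 0.0222). Ag5r2 stood at 20.5, 16.8, 15.5, 24.4 and 11.1 CPM in HSD mothers, against 37.9, 38.1, 43.8, 43 and 24.9 CPM in CD mothers (-1.09 ± 0.23, DESeq2 adjusted p = 0.00498). Both were separated between the diets. The direction was not shared by all predicted serine proteases: CG9676 was at 47.6 to 105 CPM in HSD mothers and 17.9 to 44.5 CPM in CD mothers (1.0 ± 0.31, edgeR adjusted p = 0.489), and CG17239 was higher with a DESeq2 adjusted p of 0.0390 (0.64 ± 0.16).

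**Figure D3:**
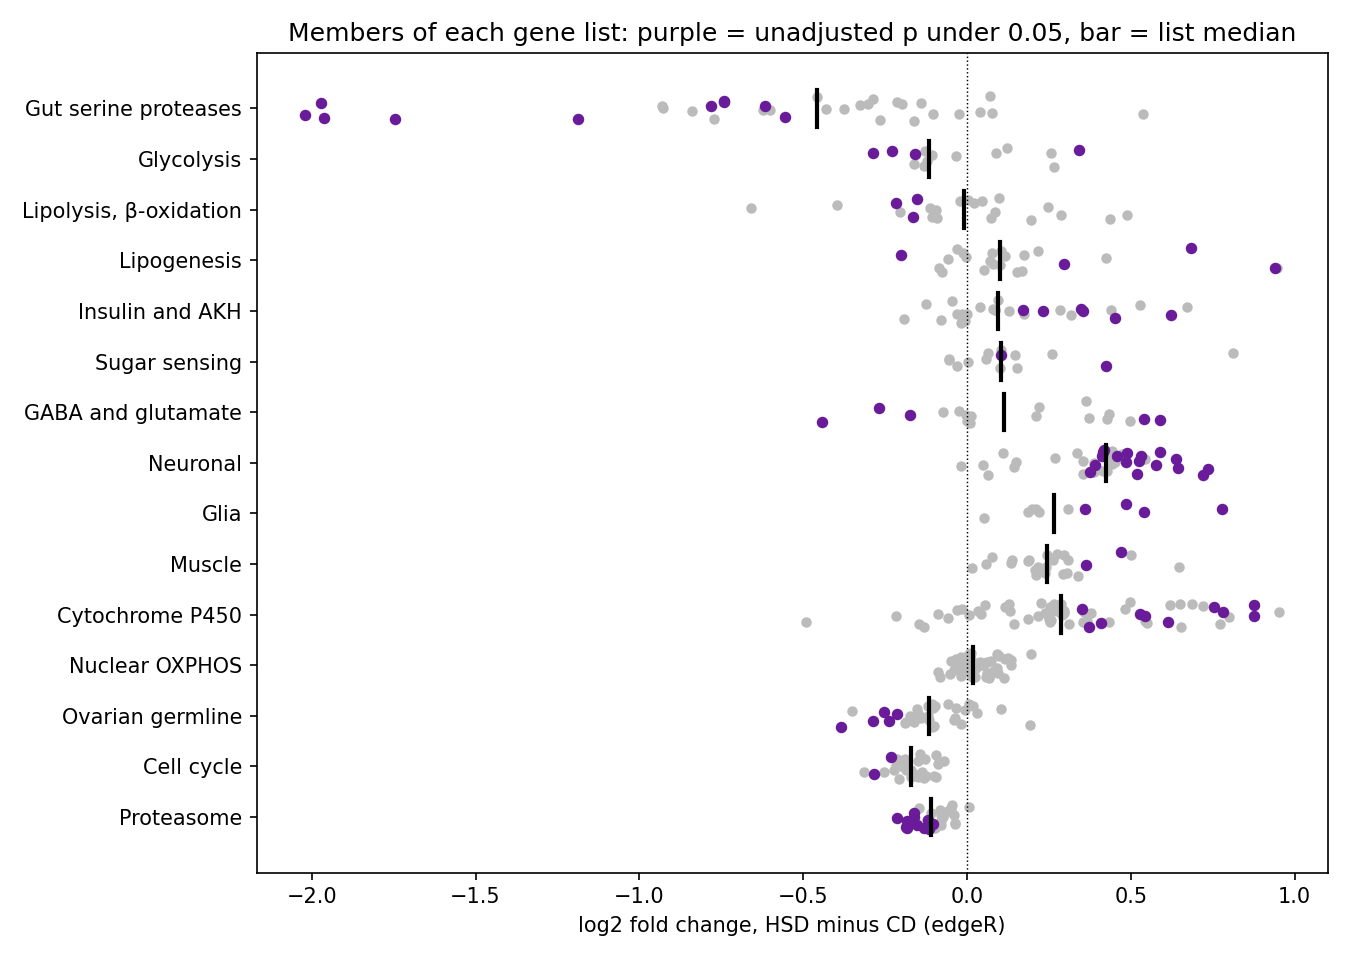
Log2 fold change of HSD over CD mothers (edgeR) for each tested member of 15 gene lists, with genes at an unadjusted p under 0.05 in purple and the list median as a bar. Gut serine proteases sit left of 0 (median -0.46), neuronal genes right of it (median 0.42), and nuclear oxidative phosphorylation genes around it (median 0.02).

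Neuronal genes had mostly positive log2 fold changes in HSD mothers, with overlapping libraries. Of 38 neuronal genes tested, 37 had a positive log2 fold change (all genes, 53.2%), 17 were higher at an unadjusted p under 0.05 (all genes, 5.6%) and 0 lower, and the median was 0.42. The list's mean log2 CPM was 5.53, 4.96, 5.24, 5.61 and 4.92 in HSD libraries, against 4.26, 5.28, 4.88, 4.92 and 4.84 in CD libraries. The groups overlapped: CD library s2 lay above 3 of the HSD libraries and CD library s1 lay lowest of all. Not 1 of the 38 genes had every HSD library above every CD library, which was also rare over all genes (0.478%). In whole flies more nervous tissue relative to other tissue and more RNA per neuron cannot be told apart.

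Among the neuronal genes, ple, the tyrosine hydroxylase of dopamine synthesis, was at 16.4 to 33.1 CPM in HSD mothers and 11.3 to 17.9 CPM in CD mothers (0.64 ± 0.20, edgeR adjusted p = 0.489), and the acetylcholine receptor subunit nAChRalpha6 at 27.9 to 46.0 CPM and 15.4 to 32.6 CPM (0.58 ± 0.19, edgeR adjusted p = 0.489). Neuropeptide genes had a median of 0.38 over 23 tested, with 4 higher at an unadjusted p under 0.05 and 0 lower (all genes, 5.6% and 3.66%). That number was 7 without HSD library s15 and 2 without any single one of CD libraries s1 and s3 and HSD libraries s11 and s14. The 4 included AstA (0.47 ± 0.16, edgeR adjusted p = 0.503), which acts in satiety, the ion transport peptide ITP (0.51 ± 0.18, edgeR adjusted p = 0.503) and NPF (0.57 ± 0.26, edgeR adjusted p = 0.528), the fly relative of neuropeptide Y. Glial genes had a median of 0.26 over 10 tested, and the astrocyte gene alrm was at 4.11 to 7.58 CPM in HSD mothers and 2.63 to 4.71 CPM in CD mothers (0.78 ± 0.26, edgeR adjusted p = 0.489). Of 22 photoreceptor genes tested, 3 were higher and 1 lower at an unadjusted p under 0.05, with a median of 0.33. The number higher ran from 3 to 12 over single libraries left out. Their mean log2 CPM overlapped, at 5.88 to 6.55 in HSD and 5.20 to 6.33 in CD libraries. The 1 with every HSD library above every CD library was chp, whose product shapes the rhabdomere. It stood at 135, 96.5, 109, 154 and 97.7 CPM in HSD mothers, against 43.6, 77.8, 83.4, 74.6 and 90.7 CPM in CD mothers (0.67 ± 0.18, edgeR adjusted p = 0.397, DESeq2 adjusted p = 0.0543).

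Beside these, 25 of 25 muscle genes had a positive log2 fold change (all genes, 53.2%), with a median of 0.24. At an unadjusted p under 0.05, 2 of the 25 were higher (all genes, 5.6%). Of 33 ovarian germline genes 28 had a negative log2 fold change (all genes, 46.8%), with a median of -0.12 and 5 genes lower at that p (all genes, 3.66%). Of 30 cell cycle genes 30 had a negative one, with a median of -0.17 and 2 genes lower at that p (all genes, 3.66%). The 23 yolk and follicle genes were split, 11 positive and 12 negative, with a median of -0.01. Of these, 4 were lower at that p (all genes, 3.66%). That number ran from 2 to 7 with the same libraries left out as for the eggshell genes below. Single libraries decided these numbers. Without HSD library s15 there were 5 muscle genes higher and 11 germline and 21 cell cycle genes lower. Without CD library s2 there were 4 muscle genes higher and 10 cell cycle genes lower, and without HSD library s12 there were 4 muscle genes higher. Leaving out CD library s1 gave 0, 3 and 1 genes of the muscle, germline and cell cycle lists, and leaving out HSD library s13 gave 1, 3 and 0. Without HSD library s14 there were 0 muscle genes and 1 cell cycle gene, and without HSD library s11 there were 1 and 0. Without CD library s4 or s5 there was 1 gene in both of these lists, and without s3 there was 1 cell cycle gene. The mean log2 CPM of cell cycle genes was 6.97, 7.31, 7.01, 7.12 and 7.60 in HSD libraries, against 7.57, 7.07, 7.47, 7.43 and 7.37 in CD libraries. HSD library s15 was the highest and s11 the lowest of all 10, so the groups overlapped from end to end. The translational repressor cup of the germline was at 207 to 268 CPM in HSD mothers and 256 to 293 CPM in CD mothers (-0.25 ± 0.07, edgeR adjusted p = 0.489), and the replication licensing gene Mcm3 at 86.9 to 128 CPM and 98.1 to 138 CPM (-0.28 ± 0.11, edgeR adjusted p = 0.528). With the ovarian germline score of each library as a covariate, 0 neuronal genes were at an unadjusted p under 0.05 and their median was 0.20. The gut proteases then had a median of -0.57 with 8 genes lower. Over all genes the covariate left 178 higher and 204 lower at that p, against 574 and 375 without it. The score itself averaged 7.80 in HSD and 7.92 in CD libraries, so the covariate can also take up part of the diet difference. Leaving out single libraries moved the number of neuronal genes at that p between 4 (without HSD library s14) and 28 (without CD library s2), and it was 5 without HSD library s11, 7 without CD library s1, 9 without CD library s5 and 11 without HSD library s13.

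**Figure D4:**
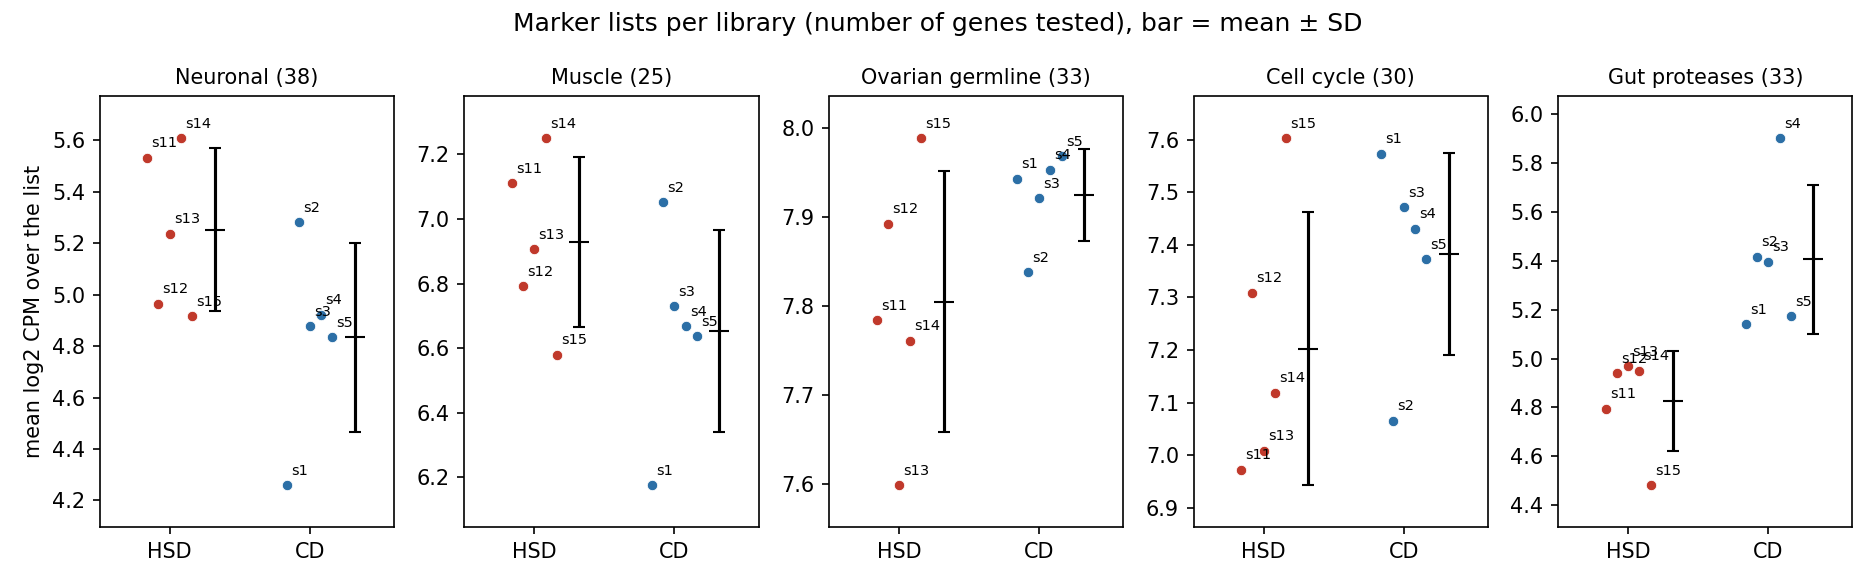
Mean log2 CPM of 5 marker lists in each library, HSD (red, left) and CD (blue, right), with the mean ± SD beside each group. Gut protease means are separated (at most 4.97 in HSD, at least 5.14 in CD), whereas neuronal, muscle, ovarian germline and cell cycle means overlap, with s1 at the low end and s2 at the high end of the CD libraries for neuronal and muscle genes.

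Eggshell transcripts included some of the larger differences at high levels. The vitelline membrane gene Vm34Ca stood at 673, 609, 235, 518 and 279 CPM in HSD mothers, against 735, 1013, 1273, 765 and 1170.0 CPM in CD mothers (-1.10 ± 0.34, edgeR adjusted p = 0.489). The eggshell organiser dec stood at 706, 691, 417, 771 and 469 CPM in HSD mothers, against 1227, 1112, 1802, 925 and 1635 CPM in CD mothers (-1.13 ± 0.39, edgeR adjusted p = 0.489). Both were separated, with DESeq2 adjusted p of 0.177 and 0.244. Over 17 vitelline membrane and chorion genes, collected by symbol after values had been seen, 6 had a positive and 11 a negative log2 fold change. The list's mean log2 CPM overlapped between groups, at 6.53 to 7.57 in HSD libraries and 5.71 to 8.28 in CD libraries. The median was -0.68, and it lay between -0.84 and -0.10 when single libraries were left out, with -0.10 without CD library s4. At an unadjusted p under 0.05, 4 genes were lower and 0 higher (all genes, 3.66% and 5.6%). The number lower was 7 without CD library s4 or HSD library s14 and 2 without any single one of CD libraries s2, s3 and s5 and HSD libraries s13 and s15. HFD libraries ranged from 395 to 1899 CPM of dec, wider than either group.

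Among proteasome subunits, Rpt2 was called by DESeq2 as lower in HSD mothers. Rpt2, an ATPase of the regulatory particle that unfolds ubiquitinated proteins, stood at 175, 167, 170.1, 173 and 177 CPM in HSD mothers, against 208, 185, 209.9, 194 and 203 CPM in CD mothers. The groups were separated (-0.21 ± 0.05, DESeq2 adjusted p = 0.0126, edgeR adjusted p = 0.346). Of 31 proteasome genes, collected by symbol after Rpt2 had been seen, 30 had a negative log2 fold change (all genes, 46.8%). In 4 of the 31, every HSD library lay below every CD library (all genes, 0.761%). These were Rpt2, which prompted the list, and Rpn1, Rpn7 and Rpn13. The median of the 31 was -0.11, and 12 were lower at an unadjusted p under 0.05 (all genes, 3.66%). The number lower was 6 without any single one of CD libraries s1 and s3 and HSD library s11, and 7 without HSD library s13. It was 17 without CD library s2 or HSD library s15. The list's mean log2 CPM overlapped, at 7.31 to 7.47 in HSD libraries and 7.37 to 7.55 in CD libraries. With the ovarian germline score as a covariate, 5 were lower at that p and the median was -0.06, and over all genes 204 were then lower.

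Genes of membrane transport and detoxification called by DESeq2 as higher in HSD mothers were NKCC, List and Cyp6a14. NKCC, a sodium-potassium-chloride cotransporter, stood at 99.998, 86.3, 114, 87.4 and 65.9 CPM in HSD mothers, against 57.5, 54.7, 60.1, 41.4 and 64.4 CPM in CD mothers (0.70 ± 0.16, DESeq2 adjusted p = 0.0145). All HSD libraries lay above all CD libraries, the lowest by little. List, a member of the SLC6 transporter family, was at 13.1 to 28.4 CPM in HSD mothers and 8.29 to 15.9 CPM in CD mothers (0.94 ± 0.22, DESeq2 adjusted p = 0.0222). Of 64 cytochrome P450 genes, 10 were higher at an unadjusted p under 0.05 and 0 lower (all genes, 5.6% and 3.66%), 56 had a positive log2 fold change (all genes, 53.2%), and the median was 0.29. The number higher was 22 without CD library s1, 16 without HSD library s15 and 4 without HSD library s13. Of 32 glutathione transferases 2 were higher and 0 lower, and 20 had a positive and 12 a negative log2 fold change. Of 16 sugar transporters 2 were higher and 0 lower. Over single libraries left out, the number higher ran from 1 to 4 for the transferases and from 0 (without HSD library s13) to 4 for the transporters, with 4 in both cases without HSD library s15. Against HFD mothers 26 of the 64 P450 genes were higher and 2 lower at an unadjusted p under 0.05 (all genes, 5.45% and 2.67%). Libraries s12 and s13 stood apart in this comparison too. The mean log2 CPM of the P450 list was 4.47 in s12 and 4.86 in s13, above the HFD range of 3.45 to 3.82. HSD libraries s11, s14 and s15 were in that range or at its edges, at 3.82, 3.86 and 3.44.

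Cyp6a2, a xenobiotic-metabolising P450, stood at 46.3, 63.1, 60.6, 49.1 and 39.6 CPM in HSD mothers, against 20.4, 30.9, 17.6, 34.2 and 37.5 CPM in CD mothers (0.88 ± 0.25, edgeR adjusted p = 0.489), with the groups separated. Cyp6a14 was called by DESeq2 (0.61 ± 0.15, adjusted p = 0.0268) and overlapped through CD library s1. The mean log2 CPM of the P450 list was 3.82, 4.47, 4.86, 3.86 and 3.44 in HSD libraries, against 4.37, 3.74, 3.75, 3.61 and 3.47 in CD libraries, with s12, s13 and s1 the highest. Without those 3 libraries the median was 0.07 and 4 genes were higher.

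Further genes called by DESeq2 and separated between the diets covered several functions. On the higher side they were to (takeout), a fat body and sensory protein tied to feeding and the clock, at 44.2 to 91.7 CPM in HSD mothers and 26.9 to 43.3 CPM in CD mothers (0.86 ± 0.22), the BMP-pathway zinc-finger factor shn (0.32 ± 0.08), the phosphatidylinositol synthase Pis (0.26 ± 0.06), the ESCRT-III subunit shrb (0.19 ± 0.05), and CG2217 and CG8641. On the lower side they were the replication factor Sld5 at 12.8 to 14.3 CPM in HSD mothers and 18 to 20.1 CPM in CD mothers (-0.46 ± 0.11), the Bcl-2 family gene Debcl (-0.23 ± 0.06), the splicing factor U2A (-0.26 ± 0.06), the signal recognition subunit Srp68 (-0.15 ± 0.04), the helicase Ddx1 (-0.28 ± 0.07), the aminopeptidase ApepP (-0.20 ± 0.05), the vesicle-traffic factor Gdi (-0.11 ± 0.04) and CG14102. The tyrosine aminotransferase Tat, which starts tyrosine breakdown, was also called, at 23 to 34.2 CPM in HSD mothers and 12.4 to 24.6 CPM in CD mothers (0.65 ± 0.17, DESeq2 adjusted p = 0.0467), as were the iron-sulphur scaffold IscU (0.38 ± 0.10), CG42394 and CG17321, with overlapping groups.

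Inducible immune genes were high in single libraries of both diets. Dro, the antimicrobial peptide drosocin, stood at 0.607, 12.8, 640.3, 0.777 and 3.34 CPM in HSD mothers, against 33.1, 3.0, 2.29, 0.949 and 3.14 CPM in CD mothers. AttC, an attacin, stood at 3.54, 115, 756, 4.08 and 1.49 CPM in HSD mothers, against 95.7, 8.31, 4.74, 2.56 and 3.62 CPM in CD mothers. Library s13 was highest for both, s12 and s1 came next, and the remaining HSD and CD libraries were low. Their log2 fold changes of 3.94 ± 2.0 (edgeR adjusted p = 0.535) and 2.93 ± 1.72 (edgeR adjusted p = 0.557) became -0.54 and -0.67 without s1, s12 and s13. The median of 12 antimicrobial peptide genes that passed the filter on low counts, of 21 listed, was 2.52 in all libraries and -0.58 without those 3.

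Drs, the antifungal peptide drosomycin, was less uneven, at 567, 359, 495, 699 and 377 CPM in HSD mothers and 223, 423, 369, 349 and 420.0 CPM in CD mothers (0.49 ± 0.21, edgeR adjusted p = 0.528). The stress gene TotA was at 3.54, 13.9, 155, 6.22 and 8.78 CPM in HSD mothers, against 7.21, 3.94, 3.02, 5.33 and 5.38 CPM in CD mothers (2.91 ± 0.94, edgeR adjusted p = 0.489). Without s1, s12 and s13 the median of 6 Turandot genes was -0.16, against 2.04 in all libraries. In the other direction, pirk, a brake on the Imd pathway, was at 4.85, 6.25, 14.1, 6.31 and 3.69 CPM in HSD mothers, against 11.7, 17.8, 18.1, 13.5 and 16.7 CPM in CD mothers (-1.14 ± 0.41, edgeR adjusted p = 0.514), and the peptidoglycan-degrading PGRP-SC1b at 5.06 to 8.96 CPM and 5.46 to 20.4 CPM (-1.11 ± 0.35, edgeR adjusted p = 0.489). For pirk only HSD library s13 reached the CD range.

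**Figure D5:**
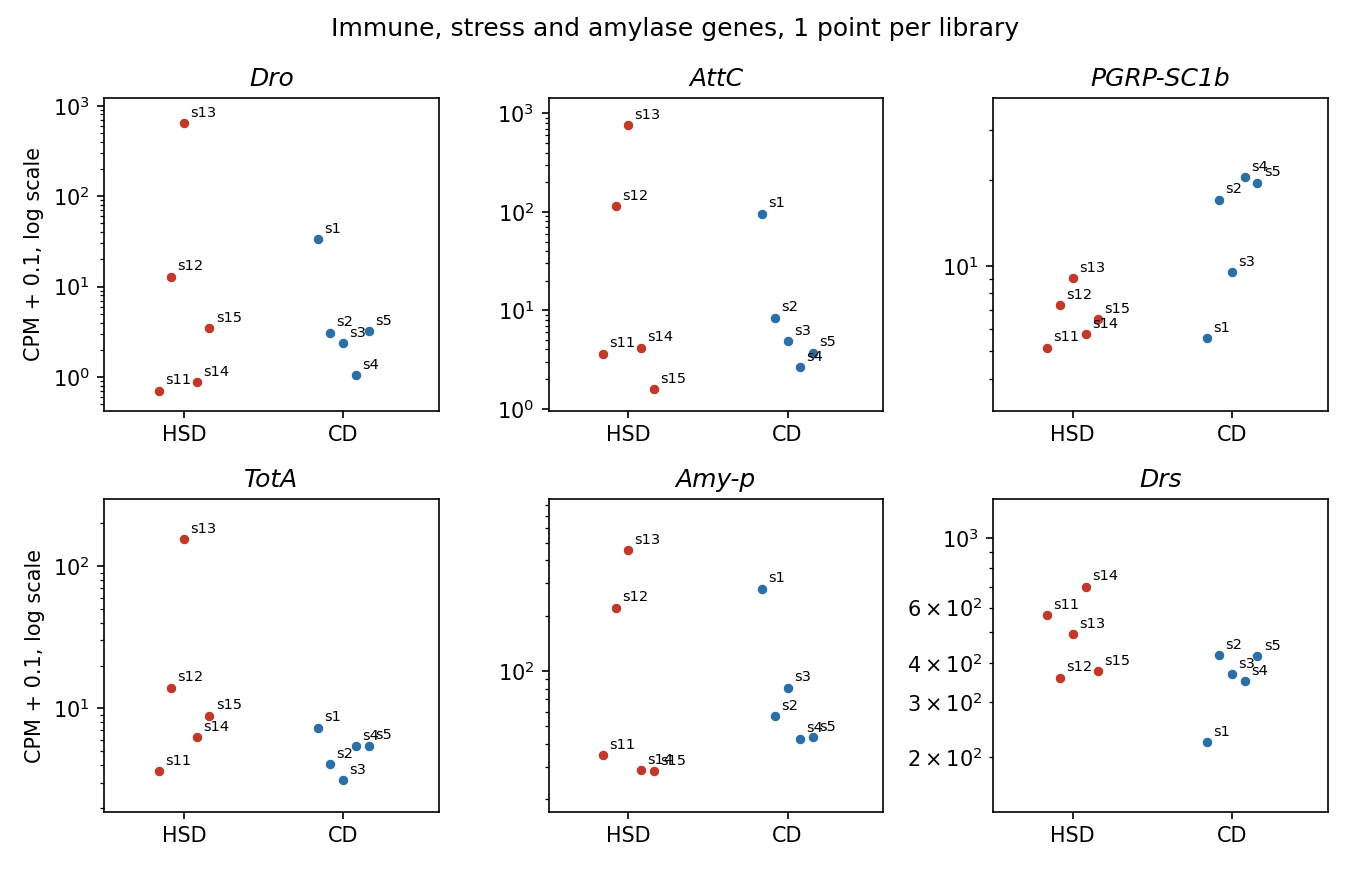
CPM + 0.1 on a log axis for the immune genes Dro, AttC, PGRP-SC1b and Drs, the stress gene TotA and the amylase Amy-p in each HSD (left) and CD (right) library, labelled by library. Libraries s13, s12 and s1 stand above the others for Dro, AttC and Amy-p, and not for Drs.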

How the data were processed

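The authors deposited whole-number counts per gene for 15 libraries of mothers, 14312 genes. The submitters' processing notes name build BDGP6, kallisto, R 4.2.0 and DESeq2 1.36.0 without roles, and do not state strandedness. Kallisto splits reads among similar transcripts by likelihood, which makes near-identical copies and overlapping genes uncertain. Symbols and coordinates came from Ensembl's BDGP6.54 annotation, in which 14302 genes were found and 10 lacked a symbol.

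From the counts, R 4.3.3 with edgeR 4.0.16 kept genes by filterByExpr (minimum count 10, minimum total 15), scaled libraries by TMM and fitted the 3 diet groups of mothers by quasi-likelihood. HSD minus CD was tested with Benjamini-Hochberg adjustment over all genes at 0.05. Alternatives were DESeq2 1.42.0, limma 3.58.1 voom with quality weights, other size factors and filters, HSD and CD alone, an ovarian germline covariate and leaving out libraries. Leaving out s1, s12 and s13 and thinning were added after seeing the data. List means used log2 CPM with a prior count of 1. Fits were tested on simulated counts. No pair of replicates matched within sampling noise (lowest chi-square per degree of freedom 14.4).

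Members, comparison and gene lists were chosen with earlier results of these data known. Named genes were DESeq2's calls, the 15 smallest p and 8 largest separated differences in each direction, the 4 smallest p of each list, and members of the sugar, lipid, insulin and GABA lists. Gapdh1, Eno and Rpn13 were named after their values were seen. Progeny were not used here.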

Additional observations from a re-analysis of the deposited data

Results flagged for a closer look

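Over 278 groups of 5 libraries (the named genes and the gene lists, in HSD and in CD), 19 had 1 library far from the other 4 by Dixon's test, which chance gives for about 1 group in 20.

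Library s13 was the high one among HSD libraries for Dro (640.3 CPM, others 0.607 to 12.8), AttC (756 CPM, others 1.49 to 115), TotA (155 CPM, others 3.54 to 13.9) and pirk (14.1 CPM, others 3.69 to 6.31). Library s1 was the high one among CD libraries for Dro (33.1 CPM, others 0.949 to 3.14), AttC (95.7 CPM, others 2.56 to 8.31) and Amy-p (280.3 CPM, others 42.7 to 81.0). It was also high for the mean log2 CPM of trehalose, glycogen and polyol genes (7.27, others 6.75 to 6.84) and of Turandot genes (2.33, others 0.781 to 1.09).

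Library s15 was the low one among HSD libraries for Gapdh1 (459.9 CPM, others 505 to 523), Pfrx (136 CPM, others 179 to 194), FASN1 (921 CPM, others 1525 to 1704), Mtpbeta (156 CPM, others 168 to 169) and Sld5 (12.8 CPM, others 14 to 14.3). Library s14 was the high one for U2A (35.8 CPM, others 31.6 to 32.1) and CG9676 (105 CPM, others 47.6 to 61.5). Among CD libraries s2 was the high one for CG17321 (7.11 CPM, others 4.65 to 5.26) and CG42394 (13.6 CPM, others 8.32 to 9.85).

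The gene w, which is mutant in this strain, was at 0.467 to 1.4 CPM in HSD libraries, and at 13.3 CPM in CD library s3 and 0.741 to 1.02 CPM in the other CD libraries. Whether s3 holds flies of the labelled genotype was not tested, and it was used as a CD library throughout.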

How the results depend on the processing

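DESeq2 called 38 genes between HSD and CD mothers and 1 between HSD and HFD mothers, and the ovarian germline covariate left 1 call, CG14963 (adjusted p = 0.0474); limma voom and edgeR called 0 under each other alternative run, with 0 to 0 when single libraries were left out, in both comparisons. The 38 had the direction of the full data under each alternative in which they were tested. Genes at an unadjusted p under 0.05 numbered 1547 higher and 1071 lower with limma voom and quality weights, 178 and 204 with the covariate, 324 and 245 without s1 and s13, and 336 higher without s1, s12 and s13. Leaving out 1 library gave 358 to 1100 higher and 246 to 1072 lower. The libraries that moved a count by over 1.5 times were HSD s15 (1100 and 1072 without it), CD s2 (1088 and 581), HSD s11 (361 higher), HSD s14 (358 higher) and HSD s13 (246 lower). The cause was not tested.

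Directions turned for genes with small or uneven differences. Amy-p was at -0.16 with the covariate, -0.88 without s1, s12 and s13, and -0.37 to 1.46 when single libraries were left out. The gene sug was at -0.099 with the covariate, -0.029 without s1 and s13, -0.022 without all 3, and -0.056 to 0.23 over single libraries. FASN1 was at 0.16 with voom, 0.0074 with a mean of 5 CPM required, 0.023 without s1 and s13, and -0.081 to 0.12 over single libraries. Ilp2 was at -0.032 with the covariate, -0.029 without s1 and s13, -0.094 without all 3, and -0.052 to 0.28 over single libraries. Dro was at -0.54 and AttC at -0.67 without all 3, and Dro ran from -0.96 to 5.81 and w from -2.06 to 0.15 over single libraries. The cause was not tested. No other named gene changed sign. No paired analysis was possible because HSD and CD libraries share no replicate number.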

Other observations

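Odorant-binding proteins, small carriers secreted around sensory hairs, had a median log2 fold change of 0.37 over 26 tested in HSD over CD mothers, with 3 higher at an unadjusted p under 0.05 and 0 lower (all genes, 5.6% and 3.66%). The number higher was 10 without CD library s2, 8 without HSD library s15, 6 without HSD library s12, 5 without CD library s1 and 1 without HSD library s14. Obp56g stood at 10.3 to 22.5 CPM in HSD mothers and 5.92 to 11.3 CPM in CD mothers (0.84 ± 0.31, edgeR adjusted p = 0.528). The median was 0.10 with the ovarian germline covariate. Among 29 genes of ecdysone and juvenile hormone signalling, 5 were higher at that p and 1 lower (all genes, 5.6% and 3.66%). Of these 29, 19 had a positive and 10 a negative log2 fold change (all genes, 53.2% and 46.8%). Kr-h1, the main juvenile hormone response factor, was at 51.3 to 91.6 CPM in HSD mothers and 43.7 to 73.1 CPM in CD mothers (0.36 ± 0.16, edgeR adjusted p = 0.528). Without s1 and s13 the hormone list had 0 higher and 1 lower, and the number higher was 3 without CD library s1 or HSD library s11 or s13 alone and 2 without HSD library s14.

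Of the genes of the reproductive tract and the response to mating, SPR, the sex peptide receptor, was at 25.7 to 46.4 CPM in HSD mothers and 16 to 33 CPM in CD mothers (0.53 ± 0.19, edgeR adjusted p = 0.528). The sperm storage protease gene Send1 was at 29.6 to 69.3 CPM in HSD mothers and 27.9 to 39 CPM in CD mothers (0.69 ± 0.28, edgeR adjusted p = 0.528). Of 72 cytosolic ribosomal protein genes 71 had a positive log2 fold change (all genes, 53.2%), with a median of 0.11. At an unadjusted p under 0.05, 1 was higher (all genes, 5.6%). That number ran from 0 to 15 over single libraries left out, with 15 without CD library s2 and 11 without HSD library s15. The list's mean log2 CPM overlapped, at 10.4 to 10.8 in HSD libraries and 10.2 to 10.8 in CD libraries. All 13 mitochondrially encoded transcripts had a positive log2 fold change (all genes, 53.2%), with a median of 0.18. Of these, 1 was higher and 0 lower at that p (all genes, 5.6% and 3.66%). The number higher ran from 1 to 5 over single libraries left out, with 5 without CD library s3. Their mean log2 CPM overlapped, at 7.43 to 7.65 in HSD libraries and 7.05 to 7.67 in CD libraries. HFD mothers were higher than HSD mothers in that list's median (-0.10 for HSD over HFD). The glycine methyltransferase Gnmt stood at 5.26, 18.5, 47.1, 4.57 and 8.96 CPM in HSD mothers, against 12.7, 1.97, 4.49, 2.63 and 1.57 CPM in CD mothers (1.85 ± 0.66, edgeR adjusted p = 0.514), with s13, s12 and s1 the highest.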
